A study of Mus musculus with 12 samples.

Results

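The repertoire of T cell receptor (TCR) beta chains in transferred CD4+ T cells was examined for public convergent CDR3s. These are amino acid sequences of the complementarity-determining region 3 (CDR3) that occurred in at least 2 of 6 mice and that at least 2 mice encoded by nucleotide sequences of their own. They were chosen by this rule from the measured tables. A CDR3 counted as a member when 2 or more animals each held a nucleotide sequence for it that no other animal had, here named a private sequence, at any count of unique molecular identifiers (UMIs, tags that mark single cDNA molecules). CDR3s with a stop codon or a frameshift were left out. The rule found 1182 members among 80300 productive CDR3 amino acid sequences, or 1.47%.

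The 12 libraries came from C57BL/6 mice and held TCR beta chains of CD4+ T cells that had been transferred as naive cells (CD4+CD25-CD44-CD62L+) into Rag2-/- hosts, which form no T or B cells of their own, in the T cell transfer model of colitis. Donors were Prkaa1 fl/fl mice (WT) or Prkaa1 fl/fl mice with CD4-Cre (KO). Prkaa1 encodes the AMPKα1 subunit of the cellular energy sensor, and CD4-Cre deletes floxed alleles while T cells develop in the thymus. Donors of both groups thus carried the floxed alleles. Cells were isolated 6 weeks after transfer from spleen and mesenteric lymph node (mLN) of WT replicates 1, 3 and 4 and KO replicates 1, 2 and 3, giving 3 libraries for each genotype and organ. Spleen and mLN libraries that carry the same genotype and number were treated as 1 animal. The hosts were young adult animals, and which donor supplied which host is not given in the sources used here, so that hosts of 1 genotype may share a donor. TCR tables hold neither lineage markers nor Prkaa1, so the labelled cell type and the deletion were not checked.

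The CDR3 is the loop of the TCR beta chain that lies over the peptide in its MHC groove. It is made when a V, a D and a J segment are joined, with bases trimmed from the segment ends and non-templated bases added between them. Because most amino acids have several codons, separate joining events can arrive at the same loop through different bases, which is known as convergent recombination. A CDR3 truly coded differently in different animals stems from separate joining events, but a sequencing or UMI error can also produce a private sequence, and 1 nucleotide sequence found in several animals cannot tell a repeated joining event from a clone or a molecule carried between them.

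The libraries held 2488 to 493287 UMIs. In 5 of them, both of WT 1, both of KO 1 and the mLN library of KO 3, sequences with 1 UMI made up 31.0% to 41.8% of all sequences, against 66.5% to 84.2% in the other 7, and the former had the smaller totals of 2488 to 64882 UMIs. This split crosses genotype and organ but not replicate 1, whose libraries all had few 1-UMI sequences. It is given beside the results below. A UMI marks a cDNA molecule, so more cells of a clone and more TCR RNA per cell cannot be told apart. Intervals and floors in the text cover counting error only. A count of 0 allowed a share of up to 0.126% in the smallest library and of up to 0.000643% in the largest.

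The member with private sequences in the most animals and in the most forms was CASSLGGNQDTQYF, which 5 animals encoded in 10 ways and none of the 10 was shared. The most abundant private sequence of each animal is shown because together they display how differently 1 loop was built. Lines run 5′ to 3′, and capitals mark positions at which the lines of 1 member differ.
WT 1: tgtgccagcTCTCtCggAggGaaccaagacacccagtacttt
WT 3: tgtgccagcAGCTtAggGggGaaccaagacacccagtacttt
WT 4: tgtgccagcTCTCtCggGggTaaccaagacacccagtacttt
KO 1: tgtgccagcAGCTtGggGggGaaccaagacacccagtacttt
KO 3: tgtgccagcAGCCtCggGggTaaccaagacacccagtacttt
All lines end in the same TRBJ2-5 bases and begin with the same 9 bases. The V segment was TRBV12-1 in WT 1, TRBV3 in WT 3 and KO 1, TRBV12-2 in WT 4 and TRBV13-3 in KO 3, and 7 positions around the V end and the glycine pair differed. These sequences were rare. They had 2 UMIs in WT 1, 23 in WT 3, 3 in WT 4, 1 in KO 1 and 9 in KO 3. The minimum quality score of the CDR3 was 26 in the KO 1 sequence and 40 in the other lines.

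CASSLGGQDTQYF, which is 1 asparagine shorter, also had private sequences in 5 animals. It joined TRBJ2-5 to TRBV26 in WT 3, TRBV12-1 in WT 4, TRBV5 in KO 1 and TRBV15 in KO 2 and KO 3.
WT 3: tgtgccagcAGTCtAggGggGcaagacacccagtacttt
WT 4: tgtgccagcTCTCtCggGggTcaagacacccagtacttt
KO 1: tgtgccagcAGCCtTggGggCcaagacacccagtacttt
KO 2: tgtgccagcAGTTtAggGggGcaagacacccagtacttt
KO 3: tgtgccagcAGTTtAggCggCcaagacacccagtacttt
Here too 7 positions differed. Over all its private sequences, it held 1 UMI in WT 3, 3 in WT 4, 19 in KO 1, 6 in KO 2 and 11 in KO 3.

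Next in order, with private sequences in 4 animals each, came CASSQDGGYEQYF, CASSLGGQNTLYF and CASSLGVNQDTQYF. The sequences of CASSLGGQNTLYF are shown because they differed most among these 5 members, at 8 positions, one of which lies in the alanine codon near the 5′ end.
WT 3: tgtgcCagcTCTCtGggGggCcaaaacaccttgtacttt
WT 4: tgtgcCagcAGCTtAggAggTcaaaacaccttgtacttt
KO 2: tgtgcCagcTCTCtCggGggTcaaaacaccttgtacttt
KO 3: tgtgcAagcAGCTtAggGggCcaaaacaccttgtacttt
It held 219 UMIs in WT 3, 1 in WT 4, 11 in KO 2 and 3 in KO 3, all private. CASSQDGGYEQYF, built from TRBV2 or TRBV5 and TRBJ2-7, showed the opposite balance.
WT 4: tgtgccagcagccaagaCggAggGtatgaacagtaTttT
KO 1: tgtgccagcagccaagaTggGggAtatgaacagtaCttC
KO 2: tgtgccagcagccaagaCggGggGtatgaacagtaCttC
KO 3: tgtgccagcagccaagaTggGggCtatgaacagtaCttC
Of its 4129 UMIs, 4041 were in WT 4, and only 4 of those lay in private sequences. KO 3 held 78 private UMIs of it, KO 1 held 5 and KO 2 held 1. In the WT 4 sequence of this member the last bases of the J end also differed, and without sequences that carry an unusual J end it kept private sequences in 3 animals.

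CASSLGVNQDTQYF was encoded with TRBV3 in WT 1, TRBV26 in WT 3 and KO 2 and TRBV12-1 in WT 4, at 6 differing positions.
WT 1: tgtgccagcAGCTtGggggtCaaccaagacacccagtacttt
WT 3: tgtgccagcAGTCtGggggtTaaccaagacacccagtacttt
WT 4: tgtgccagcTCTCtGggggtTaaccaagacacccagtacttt
KO 2: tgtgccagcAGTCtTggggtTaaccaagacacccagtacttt
KO 2 held 102 UMIs of it, WT 3 held 17, WT 4 held 8 and WT 1 held 1. The other members among the first 10 by number of animals were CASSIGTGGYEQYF, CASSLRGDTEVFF, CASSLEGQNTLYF, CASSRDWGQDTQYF and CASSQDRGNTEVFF, each with private sequences in 4 animals and 11 to 240 UMIs in all. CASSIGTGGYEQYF used TRBV19 and TRBJ2-7 in every animal and was the 1 member of the 10 with a single V segment. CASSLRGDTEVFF was the best supported of these, with 6 UMIs in WT 3, 111 in WT 4, 18 in KO 2 and 105 in KO 3, and it kept 4 animals when sequences under 5 UMIs were left out.

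A second order ranked members by the share that private sequences reached in the animal with the second-highest share. High ranks thus mark loops with a relatively large share in more than 1 animal. As a share it favours animals with few UMIs such as WT 1 (21991 productive UMIs), where some of these members had few molecules. Its first member is 15 residues long and joined TRBV3 to TRBJ2-2 in KO 2 and KO 3.
KO 2: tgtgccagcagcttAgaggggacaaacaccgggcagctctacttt
KO 3: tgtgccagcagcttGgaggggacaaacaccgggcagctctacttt
Its sequences differed at 1 position, the third base of a leucine codon. The KO 2 sequence held 732 UMIs, 0.275% of the productive UMIs of that animal, with 127 in mLN and 605 in spleen. The KO 3 sequence held 922 UMIs, or 0.435%. In both animals it was found in both organs.

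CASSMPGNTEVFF came second and was encoded with TRBV19 and TRBJ1-1 in WT 1 and WT 4.
WT 1: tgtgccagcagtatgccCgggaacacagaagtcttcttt
WT 4: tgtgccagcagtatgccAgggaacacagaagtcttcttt
Again the last base of a codon was the only difference between the leading sequences, which held 23 UMIs in WT 1 and 1374 in WT 4. The total of WT 4 was larger, and as shares of productive UMIs the private sequences of this member held 0.109% in WT 1 and 0.272% in WT 4.

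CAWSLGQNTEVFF and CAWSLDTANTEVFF both joined TRBV31, the V segment that lies downstream of the J clusters in opposite orientation, to TRBJ1-1. The former was found in WT animals alone.
WT 1: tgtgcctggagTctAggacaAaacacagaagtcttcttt
WT 3: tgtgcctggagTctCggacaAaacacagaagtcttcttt
WT 4: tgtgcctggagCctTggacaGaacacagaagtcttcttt
The latter was reached by a WT and a KO animal through differences in 2 codons.
WT 1: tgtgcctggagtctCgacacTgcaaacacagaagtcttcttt
KO 3: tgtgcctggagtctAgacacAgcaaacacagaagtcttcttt
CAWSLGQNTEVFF held 11 UMIs in WT 1, 1431 in WT 3 and 1 in WT 4. Its WT 4 sequence had a minimum quality score of 24, against 40 in the WT 1 and WT 3 lines. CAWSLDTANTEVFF held 10 UMIs in WT 1 and 243 in KO 3. The fifth member, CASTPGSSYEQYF, had 16 UMIs with TRBV13-1 in WT 1 and 120 with TRBV13-3 in KO 2, and its sequences differed at 3 positions, 2 of them within a serine codon.
WT 1: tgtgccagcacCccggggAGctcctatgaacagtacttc
KO 2: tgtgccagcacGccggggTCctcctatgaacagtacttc
The remaining members of this order were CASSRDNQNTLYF, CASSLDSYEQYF, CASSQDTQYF, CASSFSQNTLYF and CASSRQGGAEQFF. All 10 members of this order kept private sequences in 2 animals when sequences under 5 UMIs were left out. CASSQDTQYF, the shortest with 10 residues, had 6 UMIs in WT 1 and 28 in KO 1.

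**Figure D1:**
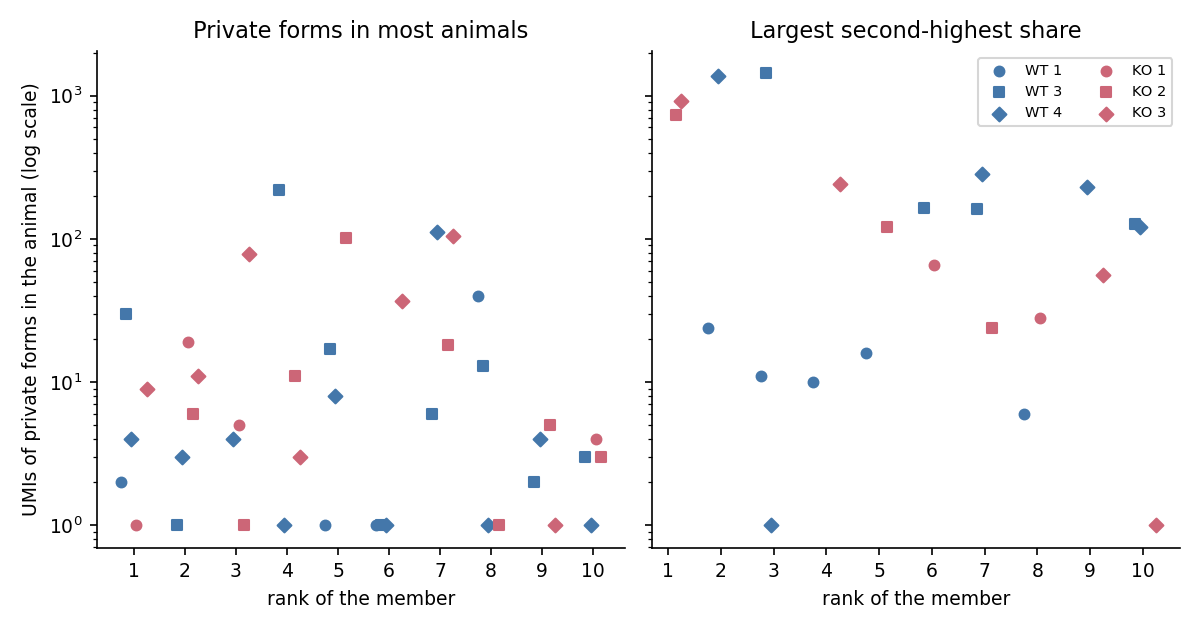
UMIs of private sequences (log scale) in each animal for the 10 members with private sequences in most animals (left) and the 10 with the largest second-highest share (right), ordered by rank. Circles, squares and diamonds are replicates, WT in blue and KO in red, and animals without a private sequence are not drawn. Members on the left mostly sit under 100 UMIs, with 1 UMI in at least 1 animal for most, while the first member on the right reaches 732 and 923 UMIs in KO 2 and KO 3.

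Most members were found in few animals and at few UMIs. Private sequences were present in exactly 2 animals for 1059 members, in 3 for 111, in 4 for 10 and in 5 for 2. Both animals reached at least 2 UMIs for 410 members (34.7%), at least 10 UMIs for 80 and at least 100 UMIs for 4. For 772 members the second-highest animal thus held its private sequence as 1 UMI. Altogether, the members had 3015 distinct nucleotide sequences, 2909 of them private, and 775 members had exactly 2.

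Of 2342 CDR3s found in 2 or more animals, 1160 were not members, 354 because 1 animal alone had a private sequence and 806 because none had. Just inside, members with private sequences in 2 animals had a median of 7 UMIs in the highest and 1 in the second-highest animal. Just outside, CDR3s with a private sequence in 1 animal had medians of 212 and 2 UMIs, and those with none had medians of 99 and 1.

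The number of bases that separated the animals was small. The closest private sequences of different animals differed at 1 nucleotide for 402 members (34.0%), at 2 for 343 and at 3 or more for 437, up to 10 nucleotides for 1 member. Among the 80 members with at least 10 UMIs in each of 2 animals, 40 differed at 1 nucleotide and 19 at 3 or more. Between the most abundant private sequences of 2 animals, 2.62 ± 1.55 (SD over 1182 members) nucleotides differed.

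**Figure D2:**
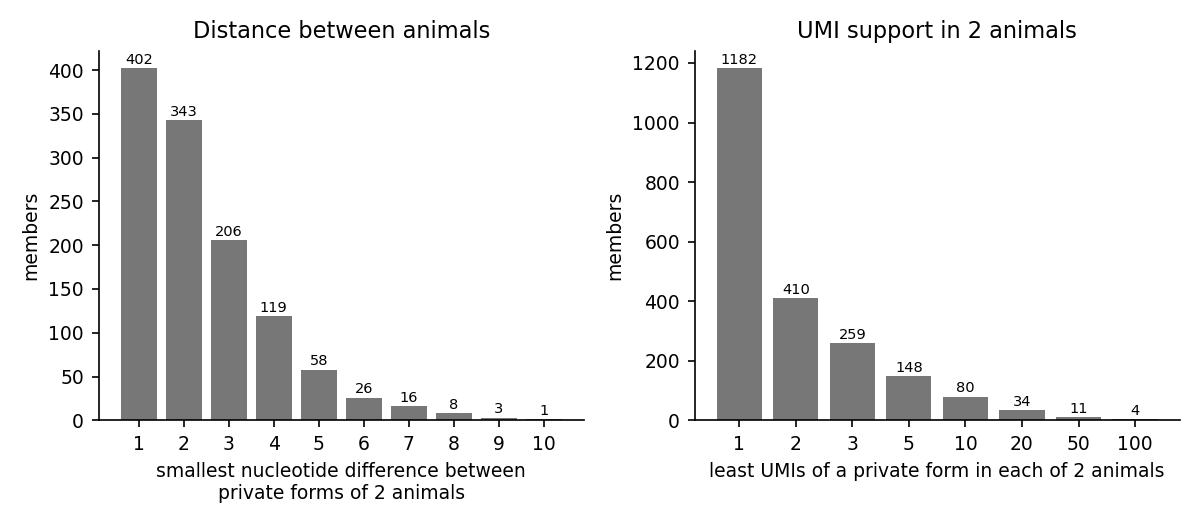
Left, members by the smallest number of nucleotides that separates private sequences of 2 animals. Right, members whose private sequences reach the given number of UMIs in each of at least 2 animals, falling from 1182 at 1 UMI to 410 at 2, 80 at 10 and 4 at 100.

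Most differences lay outside the stretches aligned to V or J in both sequences. Of all differing positions, 58.7% were between the end of the V alignment and the start of the J alignment, a stretch that made up 20.4% of CDR3 positions in the same pairs. A further 31.8% were within both V alignments and 9.53% within both J alignments. As the rule requires the amino acids to be equal, differences were confined to synonymous ones, and 80.8% fell on the third position of a codon. The most abundant private sequences of all animals shared their J segment in 97.9% of the members but their V segment in only 41.8%, and 54.9% of members had a different V segment in every animal compared. In members with 1 V segment, 74.1% of the differing positions were between the V and J alignments. Alignments to the same segment follow the same germline bases, so few differences can fall within both. The place of the differences is thus partly set by how the stretch is defined. In 54 members (4.57%), animals used the same V and J and differed only at aligned germline positions. Among the private sequences of those 54 members 60.3% had 1 UMI, against 49.8% in the other members.

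Whether these loops were built differently from the rest was addressed by comparing members with all other productive CDR3s of the same animal. Neither length nor the V-J gap, the number of bases between the V and J alignments, was named in the rule. Both are read from the CDR3 that the rule matches between animals, so neither is independent of it. The tests below thus cannot part a trait of members from what the rule selects. Members were shorter in 6 of 6 animals. The mean length of members was 13.5 residues in WT 1, 13.5 in WT 3, 13.4 in WT 4, 13.2 in KO 1, 13.4 in KO 2 and 13.4 in KO 3, and that of the other CDR3s lay between 13.8 and 13.9 in each animal, so that the sets of values did not overlap. The mean difference was −0.47 ± 0.11 residues (SD, n = 6 animals). In a two-sided exact sign-flip test over animals p was 0.03125, the smallest that 6 animals allow. After Benjamini-Hochberg adjustment over 4 tests within animals it was 0.0625, which does not pass 0.05. By the rule each member is in 2 or more animals, so the 6 differences are not fully independent, as the test assumes. The same limit holds for the tests of the V-J gap and of 1-UMI sequences below. Taken once over all animals, 37.3% of members were 14 residues long and 1.78% were longer than 15, against 31.8% and 9.58% of the others. No member exceeded 17 residues, while other CDR3s reached 34.

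The V-J gap was narrower in members, also in 6 of 6 animals. Members had a mean gap of 7.80 nucleotides in WT 1, 7.50 in WT 3, 7.26 in WT 4, 6.85 in KO 1, 6.96 in KO 2 and 7.23 in KO 3, and other sequences had 9.04 to 10.5. The difference was −2.51 ± 0.71 nucleotides (SD, n = 6 animals, exact sign-flip p = 0.03125, adjusted p = 0.0625). The share of sequences that were members fell with the gap, from 8.43% of the sequences whose V and J alignments touched or overlapped and 7.57% at 1 to 3 nucleotides to 1.25% at 13 nucleotides and more. A TRBD segment was not assigned in 32.2% to 39.5% of member sequences and 27.4% to 36.0% of the others, higher in members in 5 of 6 animals.

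Compared with the 1160 CDR3s that were found in 2 or more animals without being members, the differences kept their direction but were smaller, at −0.26 residues (adjusted p = 0.0625) and −0.83 nucleotides (adjusted p = 0.0833, both exact sign-flip tests). When sequences were weighted by UMIs they were −0.31 residues and −1.22 nucleotides, with adjusted p of 0.344 and 0.312 in exact sign-flip tests. In the animals whose libraries both had few 1-UMI sequences, WT 1 and KO 1, the gap difference was −1.24 and −2.23 nucleotides, against −2.64 to −3.25 in the other 4 animals. The length difference was larger in KO animals (−0.54 residues) than in WT animals (−0.39), with adjoining values of −0.44 in WT 4 and KO 2. An exact permutation test of genotype gave p = 0.1, the smallest possible with 3 against 3. The same exact test gave p = 0.6 for the V-J gap and 0.5 for 1-UMI sequences. For the mLN minus spleen share of UMIs it gave 0.8. These tests stood outside the main ones and were not adjusted.

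**Figure D3:**
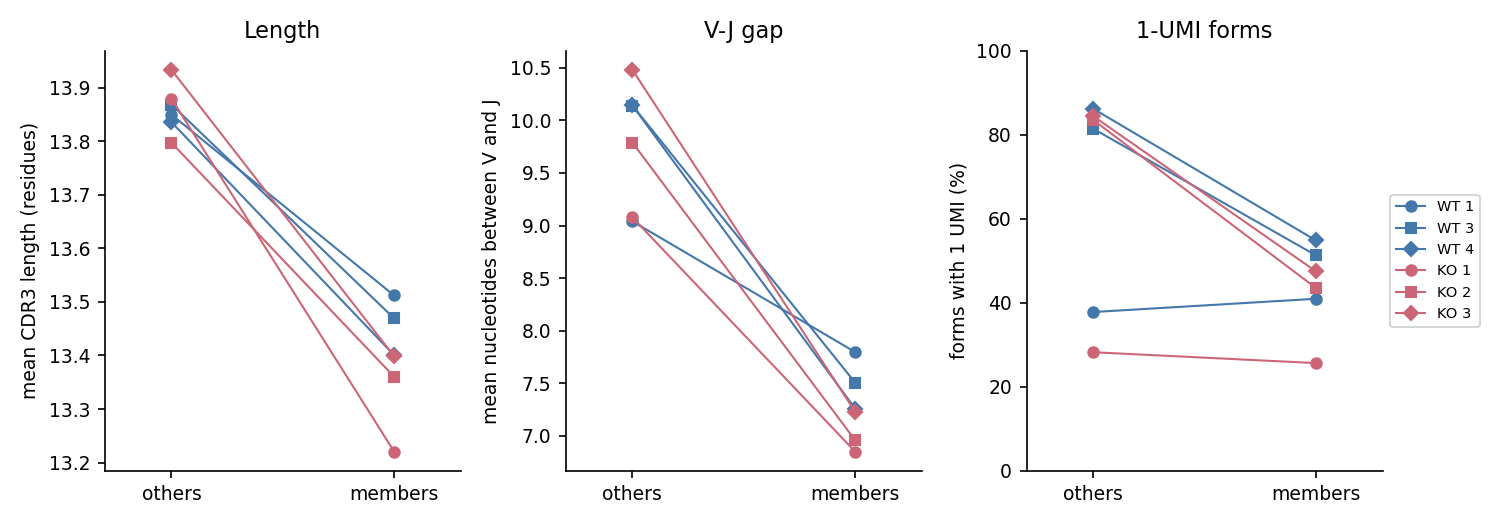
Mean CDR3 length in residues (left), mean number of nucleotides between the V and J alignments (centre) and percent of sequences with 1 UMI (right) for other CDR3s and members; each line is 1 animal, WT in blue and KO in red. The axes of the first and second panel do not start at 0. Length and gap are lower in members in all 6 animals, whereas the share of 1-UMI sequences falls steeply in 4 animals and changes by 3.16 points or less in WT 1 and KO 1.

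Member sequences were less often single molecules in the deep animals. Of member sequences, 51.3% had 1 UMI in WT 3, 54.8% in WT 4, 43.5% in KO 2 and 47.4% in KO 3, against 81.4% to 86.2% of other sequences there. In WT 1 the shares were 40.9% for members and 37.8% for the others, and in KO 1 they were 25.6% and 28.2%. Over the 6 animals the difference was −23.0 ± 18.5 percentage points (SD), lower in 5 of 6, with an exact sign-flip p of 0.09375 and an adjusted p of 0.125. After equal numbers of UMIs were drawn, the difference was −9.78 points at 2488 UMIs per library and −14.0 at 10000. It was below 0 in every animal, and p was at its smallest value of 0.03125 in the exact sign-flip test. A member must be detected in several animals, which the others need not be. The share of 1-UMI sequences is thus not independent of the rule, and these p-values cannot part the difference from that choice. Unusual J ends, where the last 9 bases were not the most frequent end of that J segment, moved in the same direction. They were found in 5.81% to 8.70% of member sequences and 28.4% to 32.5% of the others in the 4 deep animals, and in at most 0.585% and 2.49% in WT 1 and KO 1. Their part in the result was not tested beyond leaving them out, which gave −21.1 points. Near copies, sequences 1 base from one with at least 20 times their UMIs in the same animal, made up 0.493% to 4.35% of member sequences and 0.978% to 3.46% of the others. They were more frequent among members in every animal but KO 1, by a small margin in WT 1 (2.34% against 2.32%) and more in WT 4 (4.22% against 2.25%). In KO 1 they made up 0.493% against 2.93%. The rule found 1139 members when near copies were left out.

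Members leaned to some V and J segments. Segments are germline genes of the TCR beta locus, which in GENCODE M21 (GRCm38) spans chr6:40891229-41558452 over the 42 segments named in the tables, all matched by name. As the rule uses the whole CDR3, which includes bases of both segments, segment usage is described here without a test. Of 22 V segments with at least 100 sequences, 7 had a higher share among members than among the other sequences in all 6 animals and 5 had a lower share. TRBV3 (chr6:41048290-41048828, plus strand) was foremost, with 12.4% ± 1.6 of member sequences and 8.24% ± 1.84 of the others (SD, n = 6). TRBV16 followed with 6.61% against 4.40%, and TRBV4, TRBV12-1, TRBV12-2, TRBV26 and TRBV29 were also higher in members in every animal. TRBV12-1 and TRBV12-2, which several of the sequences shown above carry, had 3.28% and 2.66% of member sequences against 1.56% and 0.906% of the others. TRBV1 (chr6:40891229-40891885, plus strand) was the most reduced, with 3.24% ± 1.29 against 8.06% ± 1.62. TRBV20, TRBV23, TRBV30 and TRBV31 were lower in members in every animal as well, and TRBV30 had no member sequence. TRBV13-2 was lower in members in 5 of 6 animals, at 8.48% against 12.2%.

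Among J segments, TRBJ2-7 (chr6:41543810-41543856, plus strand) took 23.0% ± 2.2 of member sequences and 17.4% ± 1.4 of the others (SD, n = 6), higher in members in 5 of 6 animals with WT 1 the exception. TRBJ1-3 had 8.92% against 6.38%, with the same exception. TRBJ2-1, TRBJ2-2, TRBJ1-5 and TRBJ1-6 were lower among members in all 6 animals. TRBJ2-1 had 5.96% of member sequences against 10.1% of the others, and TRBJ1-5 had 0.914% against 2.87%. No J segment was higher in members in all 6 animals.

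**Figure D4:**
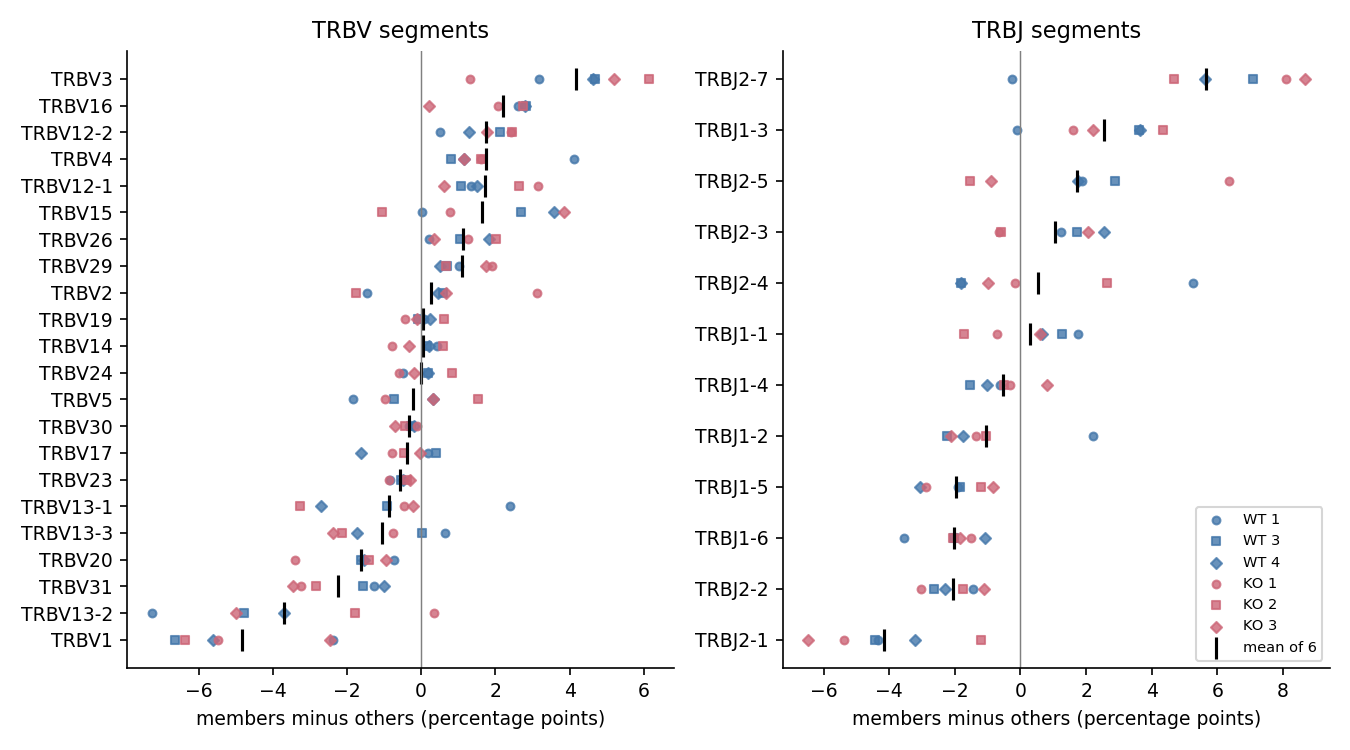
Percent of member sequences minus percent of other sequences for each V segment (left) and J segment (right) with at least 100 sequences; points are animals, WT in blue and KO in red, and black marks are the mean of 6 animals. TRBV3 and TRBJ2-7 lie farthest to the right and TRBV1 and TRBJ2-1 farthest to the left.

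A pair of glycines side by side, which the TRBD segments can encode, was present in 25.2% to 33.8% of the member CDR3s of an animal and in 19.9% to 26.6% of the others, higher in members in 6 of 6 animals. Glycine as a share of all residues was alike, on average 10.4% in both sets. Members used residues with slightly more codons. The geometric mean number of codons per residue was 3.18 to 3.23 in members and 3.14 to 3.17 in other CDR3s, higher in members in 6 of 6 animals. This property is tied to the rule, since only a CDR3 that several codons can spell can be a member, and it is given as a description.

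Members held 3.05% to 12.9% of the productive nucleotide sequences and 8.43% to 28.9% of the productive UMIs of a library. The share of UMIs was the larger in all libraries but WT mLN replicate 1, where it was 11.04% against 12.9% of the sequences. In each library, 7 to 22 of the 100 most abundant sequences belonged to members. In spleen the share of UMIs was 25.0% in WT 1 (95% Wilson interval 24.1% to 25.8%), 18.6% in WT 3 and 23.8% in WT 4, and 28.9% in KO 1, 8.43% in KO 2 and 15.6% in KO 3. The mean was 22.5% ± 3.4 in WT and 17.6% ± 10.4 in KO (SD, n = 3 each), a difference of −4.83 points with KO values on both sides of those of WT (two-sided exact permutation p = 0.6, adjusted p = 0.8 over 3 genotype tests). In mLN the share was 11.04% in WT 1, 21.8% in WT 3 and 14.8% in WT 4, and 16.1% in KO 1, 9.52% in KO 2 and 18.6% (95% Wilson interval 17.1% to 20.2%) in KO 3, the smallest library. The groups overlapped and the mean difference was −1.16 points (exact permutation p = 0.8, adjusted p = 0.8). With 3 animals against 3, no p under 0.1 was possible. The largest member sequence alone made up 9.87% to 71.6% of the member UMIs of a library. It made up 71.5% in WT spleen replicate 1, 54.9% in KO spleen replicate 1 and 71.6% in KO mLN replicate 3, so these shares rest largely on 1 sequence.

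These differences changed sign with the kind of library. Between libraries with few 1-UMI sequences, KO exceeded WT by 3.96 points in spleen (1 against 1 library) and by 6.30 points in mLN (2 KO against 1 WT). Between those with many, KO was below WT by −9.23 points in spleen (2 against 2) and −8.80 points in mLN (1 KO against 2 WT). Without KO 2, the animal with the lowest shares, KO minus WT was 9.45 points in spleen and 3.95 in mLN. mLN was above spleen in 3 of 6 animals, with a mean difference of −4.74 ± 8.07 points (SD, n = 6, exact sign-flip p = 0.25, adjusted p = 0.25).

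Sequences shared between animals held more of the member UMIs than private ones in 9 of 12 libraries, the exceptions being WT mLN replicate 1 and both libraries of KO 2. Across animals, 70.5% of the UMIs of members lay in 106 nucleotide sequences found in more than 1 animal, which belonged to 100 members. Such a sequence had a median of 167 UMIs in its highest animal and 2 in the next, and for 52 of the 106 the highest animal held at least 100 times more than the next. The largest member sequence of each library was of this type in all 12 libraries, 9 different members in all, and for none of the 9 did a second animal hold a private sequence of more than 1 UMI. In WT spleen replicate 4, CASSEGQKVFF with TRBV13-1 and TRBJ1-1 held 8.12% of productive UMIs. Its animal had 35174 UMIs of this CDR3, of which 2 were private, WT 3 had 31, WT 1 had 2 and KO 1 had 1. In KO spleen replicate 1, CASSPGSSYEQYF held 15.9% of productive UMIs. Over both organs KO 1 had 10800 UMIs of it, none of them private, with 39 UMIs in KO 2, 21 in KO 3 and 6 in WT 4. In WT spleen replicate 1, a single member sequence of TRBV13-3 and TRBJ2-7 held 17.9%.

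Private sequences alone held 1.97% to 6.50% of productive UMIs, with a median of 5.49%. In WT mLN the share was 6.40% in WT 1, 6.19% in WT 3 and 6.50% in WT 4, and in KO mLN it was 5.0% in KO 1, 6.37% in KO 2 and 1.97% in KO 3. In spleen it was 4.21%, 5.81% and 5.50% in WT 1, WT 3 and WT 4, and 3.55%, 5.48% and 3.398% in KO 1, KO 2 and KO 3. KO minus WT was −1.92 points in mLN and −1.03 in spleen, with groups that overlapped in both organs (exact permutation p = 0.2 in each, adjusted p = 0.3). This count was chosen after seeing the data. Private sequences are also what the rule used, and 414 members qualified through WT animals alone against 97 through KO animals alone. The comparison of genotypes is thus not independent of how members were chosen. The same holds for the share of all member sequences given above. In mLN the lowest value came from the library of 2488 UMIs. Members with private sequences of at least 10 UMIs in 2 animals held 0.461% to 1.95% of the UMIs.

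**Figure D5:**
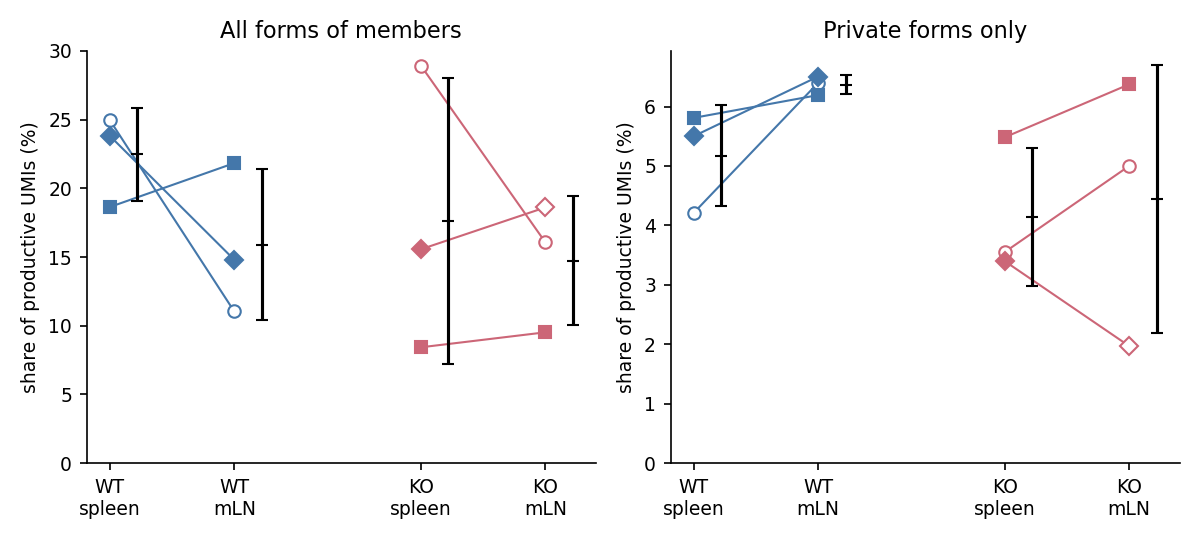
Percent of productive UMIs held by all sequences of members (left) and by their private sequences (right) in each library, with lines joining spleen and mLN of 1 animal, WT in blue and KO in red; open symbols are libraries with few 1-UMI sequences. Black bars are the mean and SD of 3 animals, and the vertical scales differ: 8.43% to 28.9% on the left and 1.97% to 6.50% on the right.

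Members were not confined to 1 genotype. Private sequences were found in animals of both genotypes for 671 members (56.8%), in WT animals alone for 414 and in KO animals alone for 97. WT 3 and WT 4 held the most CDR3s. Of the pairs of animals, 9 joined the genotypes and 6 lay within 1, so most pairs cross genotypes in any case. The share over all CDR3s of 2 or more animals was not computed, and 56.8% is not read as a trait of members. A pair of animals shared between 17 members (KO 1 with WT 1) and 423 members (WT 3 with WT 4). Divided by the number of possible CDR3 pairs, this was 0.428 to 6.94 members per 1000000 pairs between genotypes, with a mean of 1.90 over 9 pairs, and 0.595 to 2.29 within a genotype, with a mean of 1.57 over 6 pairs. The highest density was that of the animals with the fewest CDR3s, KO 1 with WT 1. Every pair that held WT 1 or KO 1 had 1.67 to 6.94 per 1000000, and every pair without them had 0.428 to 0.688. The difference, same minus different genotype, was −0.33 per 1000000 (exact permutation of genotype over animals, p = 0.8, adjusted p = 0.8). Without KO 1 it was 0.33 and without WT 1 it was 0.30, so that its sign rested on that pair of animals.

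The number of members followed depth. It fell to 80.6 ± 6.0 (SD over 20 draws) when 2488 UMIs were drawn from each library and to 208 ± 7 when 10000 were drawn from each library that held as many. At 2488 UMIs, members made up 2.67% to 3.92% of the CDR3s of an animal, with the highest values in WT 1 and KO 1. Member sequences of at least 2 UMIs were found in both organs of their animal in 74.3% of cases in WT 1, 46.8% in WT 3, 47.4% in WT 4, 58.9% in KO 1, 65.4% in KO 2 and 10.2% in KO 3, and the other sequences in 69.9%, 42.9%, 46.1%, 64.7%, 58.4% and 10.3%. The low value of KO 3 was that of the animal with the smallest mLN library, and members were above the others in 4 of 6 animals.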

How the data were processed

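TCR beta cDNA of 12 samples was made by 5′ RACE with UMIs and sequenced on a MiSeq instrument. The authors built UMI consensus reads in MIGEC and aligned segments with MiXCR (default settings); versions and the segment reference are not given in the sources used here. The deposited tables hold a whole-number clone count per clonotype, taken here as UMIs, and a clone fraction, the count over the library total, used only for checking. The deposited minimum quality score of the CDR3 was read but filtered nothing. The authors downsampled before their own analysis, whereas the deposited tables are not downsampled. UMI errors and merged clonotypes could not be redone.

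Entries with the same nucleotide CDR3 were summed per library and organs were joined per animal (Python 3.11.15, pandas 2.3.3, numpy 2.4.6). V and J ends came from the deposited alignments. Genotypes were compared by two-sided exact permutation over 20 assignments, organs and sequence features by exact sign-flip tests over 6 animals (64 patterns), with Benjamini-Hochberg adjustment within 3 genotype and 4 within-animal tests. Nothing states that replicates came from separate experiments. Named were the 10 members with private sequences in most animals (ties by distinct sequences, then UMIs) and the 10 with the largest second-highest private share, and sequences are printed for the first 5 of each. The members and lists were chosen with earlier results of these data known. Near copies are sequences 1 base from one with at least 20 times the UMIs in the same animal. The functions were tested on simulated data.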

Additional observations from a re-analysis of the deposited data

How the results depend on the processing

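The number of members and the 7 tested differences were recomputed under other settings, while segment usage, glycine pairs, codon number, D assignment, the place of the differing positions and both-organ shares were not. Of 156 recomputed values, 19 had the opposite sign, but 18 of the 156 were numbers of members, which cannot change sign. For KO minus WT shares, 8 of 21 values were reversed in mLN and 3 of 21 in spleen. For mLN minus spleen 5 of 21 were reversed, and for members per possible CDR3 pair 3 of 19. The differences in length, gap and 1-UMI sequences had 0 reversals. Exact permutation tests of genotype could not fall under p = 0.1, nor exact sign-flip tests with 1 animal left out under 0.0625, so their side of 0.05 says nothing about stability. The number of members was 460 with at least 2 UMIs per sequence and animal and 225 with at least 5. Here the rule was applied anew after the minimum, so a shared sequence can turn private once its rare copies are left out. Of the 1182 members, 410 had private sequences of at least 2 UMIs in 2 animals and 148 of at least 5. It was 772 when each private sequence had to differ at 2 nucleotides or more from every sequence of that CDR3 in other animals, shared ones included, and 407 at 3 or more, and 554 when the V segment had to be the same. It was 80.6 and 208 in draws of 2488 and 10000 UMIs, and 574 to 1084 when 1 animal was left out, with 574 without WT 4 and 628 without WT 3. In the draws of 2488 UMIs the differences in length (−0.57 residues), gap (−2.59 nucleotides) and 1-UMI sequences (−9.78 points) had an adjusted p of 0.0417 in exact sign-flip tests, and so they did in draws of 10000 UMIs (−0.50 residues, −2.76 nucleotides and −14.0 points). Members are shared between animals and chosen by the same rule in the draws too, so these p-values carry the same limits as the main tests. Length and gap were lower in members under every setting in which they were computed. The draws leave fewer UMIs and sequences per animal; the cause of these changes was not tested. With the UMI minimums the 1-UMI difference is 0 by construction and was not computed.

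The mLN minus spleen share turned to 0.0847 points with at least 2 UMIs, to 1.55 and 0.17 with private sequences 2 and 3 nucleotides apart, to 1.87 when sequences replaced UMIs and to 0.75 for private sequences alone. KO minus WT in mLN turned to 2.48 points with private sequences 2 nucleotides apart, 0.66 for sequences in place of UMIs, 2.56 without near copies and 0.75 without near copies or unusual J ends, and it ranged from −7.87 to 3.95 when 1 animal was left out. KO minus WT in spleen turned to 0.37 without near copies and ranged from −14.4 to 9.45 with 1 animal left out. Undivided counts of shared members were higher within genotypes by 23.9 per pair, and leaving out 1 animal gave −0.82 to 0.33 per 1000000 pairs. The settings for J ends, near copies, private sequences and the smallest library were chosen after seeing the data.

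WT and KO share replicate numbers 1 and 3. With these numbers as a replicate block, KO minus WT was 0.44 points in spleen and 0.90 in mLN (exact sign-flip p = 1). Deviations of V usage from the group mean correlated between same-numbered animals at −0.03 to 0.49 over 4 pairs of libraries. The main tests did not take the numbers to pair the animals. All libraries of WT 1 and KO 1 had few 1-UMI sequences, however, so number 1 goes with the kind of library. What the numbers stand for is not given, and a shared handling of same-numbered animals was not tested. Without pairing the organs of an animal, mLN minus spleen remained −4.74 points (exact permutation p = 0.203). Of the 20 named members, 20 had private sequences in 2 animals at 2 UMIs or more and 17 at 5 or more, with private status set anew after the minimum. Depth limits the smallest library most, where 3 UMIs are 0.126%.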
